A study of Mus musculus with 138 samples.

Results

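The 10 genes described here, Dppa2, Dppa4, Nr5a2, Nfya, Nfyb, Yap1, Tead4, Rarg, Klf17 and Klf5, encode transcription factors or coactivators with known roles in genome activation or in chromatin opening in the mouse 2-cell embryo. They were chosen by name for these roles, and all 10 were found in both count tables among 25900 genes. RNA with a poly(A) tail was sequenced from plate wells that each gave 1 library, by scNMT-seq, which reads DNA methylation and accessibility alongside the RNA of 1 sample. The study asked whether loss of SMARCA5, the ATPase of ISWI chromatin remodellers, changes transcription at this stage.

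There were 5 groups of 2-cell embryos. Maternal deletion embryos were labelled Smarca5 +/- and came from females that lacked Smarca5 in the egg, mated with wild type males. Their controls, called wild type here, were labelled Smarca5 +/+, and the titles of both groups name matKO females, so the titles do not tell the mothers apart. Maternal loss and the embryo's own heterozygous genotype therefore cannot be told apart in this comparison. In the second experiment SMARCA5 protein was removed from wild type zygotes by TrimAway, in which an injected antibody directs its target to degradation through the ubiquitin ligase TRIM21. The groups were embryos injected with an antibody against SMARCA5 (anti-SMARCA5), embryos injected with IgG, and embryos that were not injected, all collected at least a day after injection. The strain, the age of the females and the promoter that drove the deletion are not given in the sources used here. The labels call the replicates technical, each a separate pool of embryos, so p-values over libraries measure the spread between embryos of few pools.

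Genome activation is the switch by which the embryo takes over from RNA stored in the egg, and in the mouse its major wave falls in the 2-cell stage. DPPA2 and DPPA4 bind DNA as a pair and promote the gene Dux and young LINE-1 elements. NR5A2 is an orphan nuclear receptor, NFYA and NFYB are subunits of the CCAAT-binding complex NF-Y, and RARG is a retinoic acid receptor. TEAD4 is a DNA-binding partner of the coactivator YAP1, which the Hippo kinase pathway holds in the cytoplasm. KLF17 and KLF5 are zinc finger factors that bind GC-rich and CACCC sequences.

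Of 135 embryo libraries, 116 held at least 100000 counts and were used: 22 wild type, 28 maternal deletion, 31 anti-SMARCA5, 20 IgG and 15 uninjected. Their totals ran from 109007 to 12004992 counts with a median of 1469197. Levels are given as CPM, counts scaled to a common library total, and each range below lists the lowest, the median and the highest library. A count of 3 or less in a library was taken as at the floor, which for a library of 109007 counts is 27.5 CPM. The 3 wells without an embryo held at most 2 counts of any of the 10 genes.

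Smarca5 itself was checked first. Its level was 157.7, 443.2 and 839.2 CPM in wild type and 2.99, 82.2 and 348.5 CPM in maternal deletion libraries, and 25 of 28 deletion libraries lay under every wild type library. Trim21, whose RNA is supplied in TrimAway, was over the floor in 30 of 31 anti-SMARCA5 libraries, in 0 of 10 IgG libraries of replicate 1 and in 8 of 10 IgG libraries of replicate 3. The deletion library of replicate 2 in well A04 had the highest Smarca5 level of its group and the lowest level of the oocyte gene Gdf9, 24.5 CPM against a group median of 4376.6 CPM. The wild type libraries of replicate 2 in wells G05 and H05 had 644.6 and 350.5 CPM of Gdf9 against a group median of 52.0 CPM. The anti-SMARCA5 library of replicate 2 in well C02 had no Trim21 count. All 4 are kept under their labels, and results that they move are given with and without them.

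Markers of other cells moved with the deletion. The summed level of 10 oocyte markers was 297.7, 1430.6 and 4327.0 CPM in wild type and 625.7, 8913.1 and 30721.7 CPM in deletion libraries. All 9 oocyte markers that could be tested rose, beside 30.3% of all genes. Among them Mos had medians of 0 CPM in wild type and 25.4 CPM in the deletion, and Nobox of 4.89 and 48.9 CPM. Such genes could pass the filter on low counts through the deletion libraries, so the count is no measure of the list. The summed level of 10 cumulus and granulosa markers was 0, 72.4 and 247.7 CPM in wild type and 0, 17.3 and 126.4 CPM in deletion libraries. Of these markers Foxl2, Inhba and Inha were at 0 in every wild type library, Inha and Ptx3 in every deletion library, and the 1 that could be tested, Amhr2, fell. Amhr2 had medians of 68.4 CPM in wild type and 0 CPM in the deletion, so it could pass the filter through the wild type libraries. The summed level of 5 sperm markers was at most 32.1 CPM in any library. Markers of the 2-cell stage, such as Zscan4d and Zfp352, were over the floor in most wild type libraries for all 7 genes in the tables, and in most deletion libraries for 4 of them. The part of retained oocyte RNA in the results below was not tested. Each library is a whole embryo, so a lower level in both cells and a lower level in 1 of them cannot be told apart.

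Compared per kilobase of exon, the factors fell into a high and a low tier. In uninjected embryos Klf17 was the highest, with a median of 182.3 TMM-scaled CPM per kilobase, where TMM is a scaling that balances library composition. Dppa4 followed at 106.1, Dppa2 at 81.1 and Yap1 at 49.6. The other 6 lay between 5.93 for Tead4 and 11.6 for Nfyb. Among these 6, the mean of each gene was within 1 SD of the next in the order, and so were Dppa4 and Dppa2, and Dppa2 and Yap1, whereas Klf17 and Dppa4, and Yap1 and Nfyb, were more than 1 SD apart. In wild type embryos, the controls of the deletion, Klf17 was at 286.3, Dppa4 at 174.2, Dppa2 at 119.8 and Yap1 at 30.8. In maternal deletion embryos the order was different: Klf17 stayed first at 223.7, Yap1 came next at 99.2 and Nfya after it. Dppa2 was at 15.5 there, Dppa4 at 2.51 and Tead4 at 0. The scaling was done within each experiment, so levels are best compared with the controls of the same experiment.

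**Figure D1:**
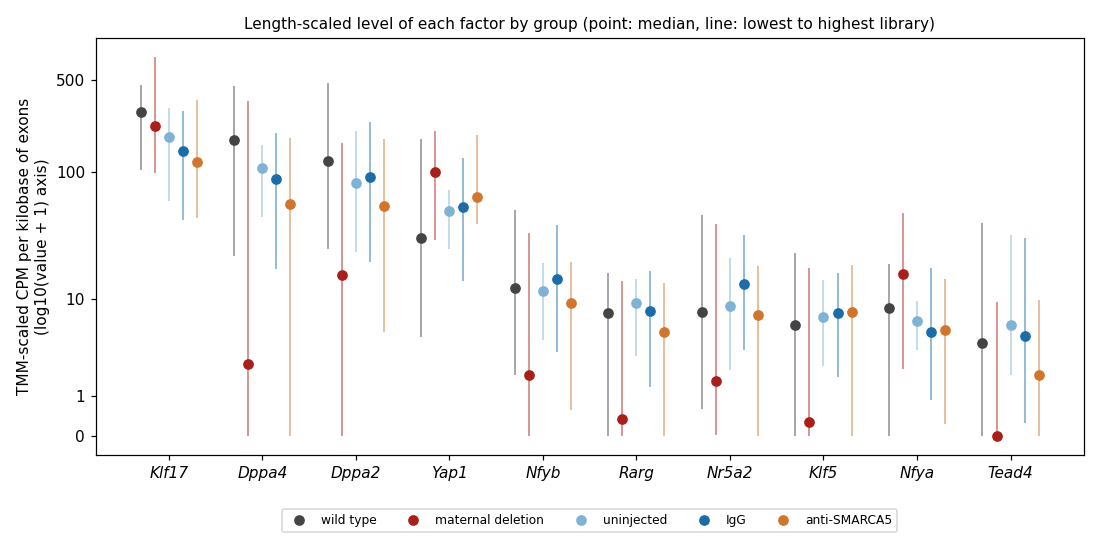
Level of each factor per kilobase of merged exons (TMM-scaled CPM, log10(value + 1) axis), by group, with points at the median and lines from the lowest to the highest library. Klf17, Dppa4, Dppa2 and Yap1 form the upper tier in the uninjected group, and the deletion medians of Dppa4, Nfyb, Rarg, Nr5a2, Klf5 and Tead4 lie under 3.

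The first comparison asked how the factors' RNA differed in maternal deletion embryos. Of the 9 factors that passed the filter on low counts, Dppa2, Dppa4, Nr5a2, Nfyb and Rarg fell and Nfya rose at an adjusted p under 0.05, whereas Yap1, Klf17 and Klf5 did not pass the test. Across all 8518 genes tested, 26.4% fell and 30.3% rose, so a change as such was common. The median log2 fold change of the 9 factors was -1.93, beside 0.18 over all genes. That median of all genes was -0.04 when libraries were scaled by their totals alone, a shift that left the direction of all 9 factors as it was. Replicates 1 and 2 of this experiment were separate collections on separate sequencing lanes. With the replicate number as a block, Yap1 (log2 fold change 0.62, adjusted p = 0.0106) also rose and Klf5 (-1.72, adjusted p = 0.0153) also fell, giving 6 lower and 2 higher factors beside 25.8% and 31.8% of all genes.

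**Figure D2:**
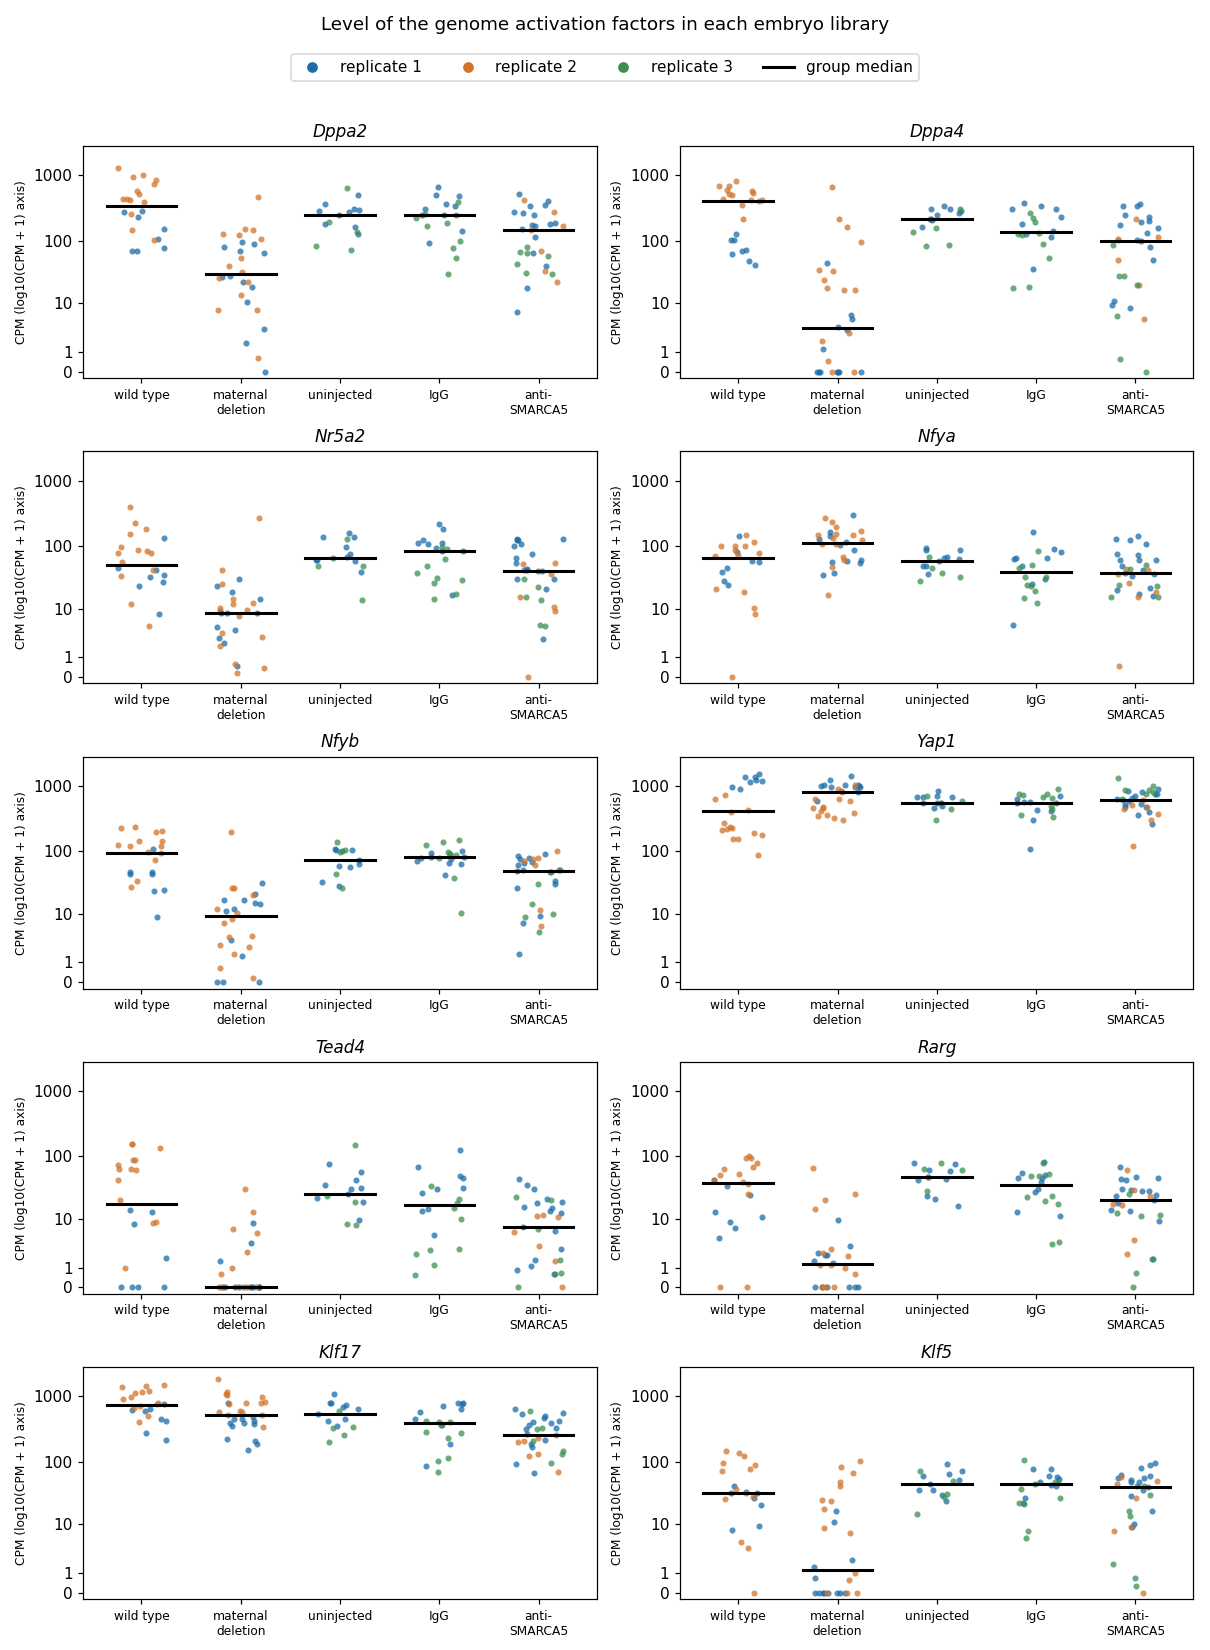
CPM of each factor in every library used (log10(CPM + 1) axis), by group, coloured by replicate number, with a bar at the group median. For Dppa2, Dppa4, Nr5a2, Nfyb and Rarg, 27 of 28 deletion libraries lie under the wild type median, and the groups overlap. The 1 library above that median is the library of well A04 for Dppa2, Dppa4, Nr5a2 and Nfyb.

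Dppa2 and Dppa4, the DNA-binding pair, both fell. Dppa2, at chromosome 16, 48310477 to 48319723 (GRCm38, plus strand), was at 68.5, 338.5 and 1308.3 CPM in wild type and at 0, 29.9 and 463.1 CPM in deletion libraries. All but 1 deletion library lay under the wild type median, and 19 of 28 lay under every wild type library. The log2 fold change was -2.51 (adjusted p = 5.64e-06, SE 0.44), a 5.7-fold fall. Dppa4, its neighbour at chromosome 16, 48283735 to 48294292 (plus strand), was at 41.1, 413.6 and 829.9 CPM in wild type and at 0, 3.57 and 660.4 CPM in deletion libraries. Of the deletion libraries, 15 were at the floor for Dppa4, 23 lay under every wild type library, and 1, in well A04, lay above the wild type median. On the log2 scale the fold change was -2.71 (adjusted p = 0.000456, SE 0.65). Without the library of well A04 it was -3.59, and that of Dppa2 -2.85.

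The pair fell in each collection, though from different control levels. Dppa4 had a wild type median of 70.7 CPM in replicate 1 and 506.7 CPM in replicate 2. In replicate 1, 11 of 13 deletion libraries were at the floor for Dppa4. Within replicate 1 its log2 fold change was -3.60 (adjusted p = 0.000483) and that of Dppa2 -2.01 (adjusted p = 0.00534). Within replicate 2 they were -2.39 (adjusted p = 0.00886) and -2.47 (adjusted p = 0.000489). The difference between the replicates' effects, tested as an interaction in which 1.08% of 11352 genes were called, was called for 0 of the 10 factors.

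Genes described as downstream of the pair or of DUX moved in both directions. This list has 14 measured genes, of which 9 passed the filter on low counts. Of these 5 fell and 1 rose, beside 26.4% and 30.3% of all genes. Tdpoz1 and Tdpoz4, members of a family of 2-cell genes, fell with log2 fold changes of -2.48 (adjusted p = 0.00299, SE 0.72) and -2.45 (adjusted p = 0.00316, SE 0.71). Their medians were 56.5 and 60.1 CPM in wild type and 0 CPM in the deletion. Such genes could pass the filter through the wild type libraries, so the count of falls is no measure of the list. Mael, a gene of the piRNA pathway, rose by 0.77 (adjusted p = 0.0493, SE 0.34). With the replicate block 3 fell and 0 rose, beside 25.8% and 31.8% of all genes. The Tdpoz and Zscan4 genes have near-identical copies between which reads may have been split, so their values are uncertain.

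Nr5a2 was lower in the deletion. The gene lies at chromosome 1, 136843584 to 136960427 (GRCm38, minus strand). Its level was 4.91, 50.8 and 393.5 CPM in wild type and 0.142, 8.43 and 267.4 CPM in deletion libraries. The groups overlapped, with 11 of 28 deletion libraries under every wild type library and 27 under the wild type median. The fitted log2 fold change was -1.93 (adjusted p = 0.00125, SE 0.51), and -2.81 without the library of well A04, which held the 267.4 CPM. It was -1.95 (adjusted p = 0.00416) within replicate 1 and -1.80 (adjusted p = 0.0471) within replicate 2.

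RefSeq promoters (GRCm38.p6) were matched for 6 of the 10 factors, Nr5a2, Nfya, Nfyb, Yap1, Rarg and Klf17; Dppa2, Dppa4, Tead4 and Klf5 had no entry. The 250 bases before the most upstream RefSeq start were searched on both strands for CCAAT (NF-Y), GGAATG (TEAD), AAGGTCA (NR5A), AGGTCA (the nuclear receptor half-site, contained in AAGGTCA), and CCGCCC and CCACCC (boxes of KLF and SP factors). Of 32851 promoter windows of this length, 33.8% held CCAAT, 12.6% GGAATG, 4.08% AAGGTCA, 14.0% AGGTCA, 32.7% CCGCCC and 28.1% CCACCC. The 2 nuclear receptors that fell are shown here, and both windows hold 1 AGGTCA, printed in capitals with any other match. In the Nr5a2 window (chr1:136960449-136960698, minus strand) it begins 64 bases before the start. In the Rarg window (chr15:102257523-102257772, minus strand) it begins 225 bases before the start on the opposite strand and so reads TGACCT, and 3 CCGCCC, 2 of which overlap, and 1 CCACCC are also in capitals. Such a match describes the letters and is not a binding site.
Nr5a2: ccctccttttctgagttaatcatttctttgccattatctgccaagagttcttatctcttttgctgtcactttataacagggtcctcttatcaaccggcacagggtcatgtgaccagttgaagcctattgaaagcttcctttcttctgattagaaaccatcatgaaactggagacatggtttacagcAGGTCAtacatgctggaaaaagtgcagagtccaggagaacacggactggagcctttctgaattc
Rarg: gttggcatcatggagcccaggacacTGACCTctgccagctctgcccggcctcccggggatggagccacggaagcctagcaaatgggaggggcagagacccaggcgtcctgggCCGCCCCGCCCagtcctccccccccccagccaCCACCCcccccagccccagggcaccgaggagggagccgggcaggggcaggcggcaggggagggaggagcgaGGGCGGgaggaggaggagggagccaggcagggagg

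Rarg, the retinoic acid receptor of this set, was lower too. It lies at chromosome 15, 102234938 to 102257517 (minus strand). Its level was 0, 38.5 and 100.9 CPM in wild type and 0, 1.28 and 66.3 CPM in deletion libraries. In the deletion 20 of 28 libraries were at the floor, against 5 of 22 in wild type, and 27 lay under the wild type median. Its fitted log2 change was -2.58 (adjusted p = 0.000903, SE 0.66). Within replicate 2 it was -2.27 and just missed the threshold (adjusted p = 0.0506). In replicate 1 Rarg did not pass the filter.

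Of 22 genes of retinoic acid supply and response 7 passed the filter on low counts and rose (6 with the replicate block). The other 15 were not tested, and a gene low in wild type could pass only through the deletion group, so the count is no measure of the list. The largest rises were those of Rdh11, a retinal reductase (2.63, SE 0.62, adjusted p = 0.0004), and Crabp2, a carrier of retinoic acid in the cell (1.69, SE 0.68, adjusted p = 0.0306). The Rdh11 median was 0 CPM in wild type, 55.3 in the deletion and 92.5 in uninjected embryos, so its control level differed between the experiments. Rara, a related receptor, rose by 1.41 (adjusted p = 0.0230, SE 0.54).

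Nfya and Nfyb, which encode partners in NF-Y, moved in opposite directions. Nfya (chromosome 17, 48386885 to 48409906, minus strand), which contacts the CCAAT box, was at 0, 63.8 and 147.2 CPM in wild type and at 16.9, 109.9 and 295.5 CPM in deletion libraries. The groups overlapped widely, and 19 of 28 deletion libraries lay above the wild type median. The log2 fold change was 1.18 (adjusted p = 0.00198, SE 0.33). It was 1.47 (adjusted p = 0.0160) within replicate 2 and 0.86 (adjusted p = 0.0694) within replicate 1.

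Nfyb (chromosome 10, 82748701 to 82764144, minus strand), a histone-fold subunit, was at 8.97, 94.3 and 236.8 CPM in wild type and at 0, 9.37 and 193.5 CPM in deletion libraries. Only the library of well A04 lay above the wild type median, and 14 of 28 lay under every wild type library. On the log2 scale the fold change was -2.35 (adjusted p = 8.58e-05, SE 0.49), and -3.00 without that library. It was -1.72 (adjusted p = 0.0274) within replicate 1 and -2.43 (adjusted p = 0.00399) within replicate 2.

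The promoter windows of these subunits are shown because the RNAs moved apart. The Nfya window (chr17:48409821-48410070, minus strand) holds 1 CCGCCC and 1 CCACCC, both on the opposite strand and so read as GGGCGG and GGGTGG. The Nfyb window (chr10:82764142-82764391, minus strand) holds 3 CCGCCC, 2 of them on the opposite strand. Placed by RefSeq starts, the Nfya window lies partly, and the Nfyb window at its edge, inside the gene span given above. Neither window has a CCAAT on either strand, which says only that these letters are not there. Both are rich in G and C, at 64.0% and 70.4%.
Nfya: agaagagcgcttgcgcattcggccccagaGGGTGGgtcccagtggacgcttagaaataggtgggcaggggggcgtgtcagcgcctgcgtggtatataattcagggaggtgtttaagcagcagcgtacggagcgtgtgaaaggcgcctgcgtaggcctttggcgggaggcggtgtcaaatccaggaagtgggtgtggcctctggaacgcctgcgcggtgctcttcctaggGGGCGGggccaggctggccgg
Nfyb: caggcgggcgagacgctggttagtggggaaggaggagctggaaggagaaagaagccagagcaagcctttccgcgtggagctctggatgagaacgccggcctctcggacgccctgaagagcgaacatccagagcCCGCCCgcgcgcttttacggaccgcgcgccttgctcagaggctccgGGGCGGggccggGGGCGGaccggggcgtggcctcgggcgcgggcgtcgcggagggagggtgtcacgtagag

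Yap1 and Tead4, coactivator and partner, did not move together. Yap1 (chromosome 9, 7931999 to 8004596, minus strand) was at 87.6, 414.1 and 1533.5 CPM in wild type and at 303.5, 808.5 and 1410.8 CPM in deletion libraries. The fitted log2 fold change was 0.43 (SE 0.30, 95% interval -0.16 to 1.02, adjusted p = 0.222). The 2 collections disagreed: within replicate 1 all libraries were high, with medians of 1209.9 CPM in wild type and 990.1 CPM in the deletion and a log2 fold change of -0.19 (adjusted p = 0.439). Within replicate 2 the medians were 221.6 and 459.2 CPM and the log2 fold change was 1.28 (adjusted p = 0.0019). The difference between replicates, 1.36 (SE 0.40), had an adjusted p of 0.0661. The antisense gene Gm20416 shares 116 exon bases with Yap1, and since the handling of strand is not stated their reads may be mixed there, but its median did not exceed 7.57 CPM in any group.

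Tead4 (chromosome 6, 128224288 to 128300823, minus strand) was at 0, 17.7 and 153.9 CPM in wild type and at 0, 0 and 31.0 CPM in deletion libraries. In the deletion 21 of 28 libraries were at the floor, against 8 of 22 in wild type, of which 6 belonged to replicate 1. It did not pass the filter on low counts in the fit of both replicates. Fitted without the filter its log2 fold change was -3.76 (adjusted p = 5.47e-05, SE 0.75), and within replicate 2, where it passed, -3.63 (adjusted p = 0.00391, SE 0.97).

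Of 13 tested regulators of YAP1 in the Hippo pathway 4 rose and 3 fell (2 with the replicate block), shares near the 30.3% and 26.4% of all genes. Stk3, which encodes the kinase MST2, rose by 2.98 (adjusted p = 3.15e-07, SE 0.45), and Taok3, a kinase upstream of it, by 1.35 (adjusted p = 0.0101, SE 0.45). Mob1a, an adaptor of the LATS kinases, fell with a log2 fold change of -1.98 (adjusted p = 3.44e-06, SE 0.34), and Stk4, which encodes MST1, with -1.12 (adjusted p = 0.0391, SE 0.47). Of the textbook targets of YAP and TEAD only 2 could be tested, and Gata3, a trophectoderm factor, rose by 4.29 (adjusted p = 4.42e-08, SE 0.59). Its median was 1.05 CPM in wild type and 40.5 CPM in the deletion, so it could pass the filter through the deletion libraries. Its rise is therefore no measure of the list.

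The 2 KLF factors differed in level and in result. Klf17 (chromosome 4, 117757836 to 117765648, minus strand) was at 217.1, 736.6 and 1504.5 CPM in wild type and at 151.1, 522.1 and 1833.0 CPM in deletion libraries. The groups overlapped, with 3 of 28 deletion libraries under and 1 above all wild type libraries. Its fitted log2 change was -0.08 (SE 0.21, 95% interval -0.49 to 0.33, adjusted p = 0.762). Klf5 (chromosome 14, 99298691 to 99313405, plus strand) was at 0, 32.6 and 144.7 CPM in wild type and at 0, 1.19 and 103.4 CPM in deletion libraries. In replicate 1, 11 of 13 deletion libraries were at the floor, and in replicate 2 the medians were 54.1 CPM in wild type and 18.0 CPM in the deletion. The log2 fold change of -1.42 (SE 0.65) missed the threshold at an adjusted p of 0.0555. Of 8 alternative settings 2 also missed it, replicate 2 alone (-0.92, adjusted p = 0.358) and without wells A04, G05 and H05 (-1.31, adjusted p = 0.0877). The others passed it, with adjusted p from 0.0153 (replicate block, -1.72) to 0.0496 (DESeq2, -1.40). Without the library of well A04 it was -1.58 (adjusted p = 0.0324).

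Relatives and partners of the factors gave 3 rises and 6 falls among 16 tested genes, beside 30.3% and 26.4% of all genes. Klf7 rose by 1.72 (adjusted p = 0.000178, SE 0.38), whereas Klf9 and Klf13 fell, with log2 fold changes of -2.49 (adjusted p = 0.000132, SE 0.54) and -1.48 (adjusted p = 0.0118, SE 0.51). Of 19 other transcription factors of the early embryo, 6 rose and 4 fell, shares near those of all genes. The largest rises were those of the oocyte factors Tbpl2 (3.55, SE 0.78) and Nobox (2.48, SE 0.60), and the largest falls those of Gabpa, an ETS factor (-2.77, SE 0.40), and Yy1, a zinc finger factor (-2.05, SE 0.37). Tbpl2 had medians of 0 CPM in wild type and 18.9 CPM in the deletion, so it could pass the filter through the deletion libraries.

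**Figure D3:**
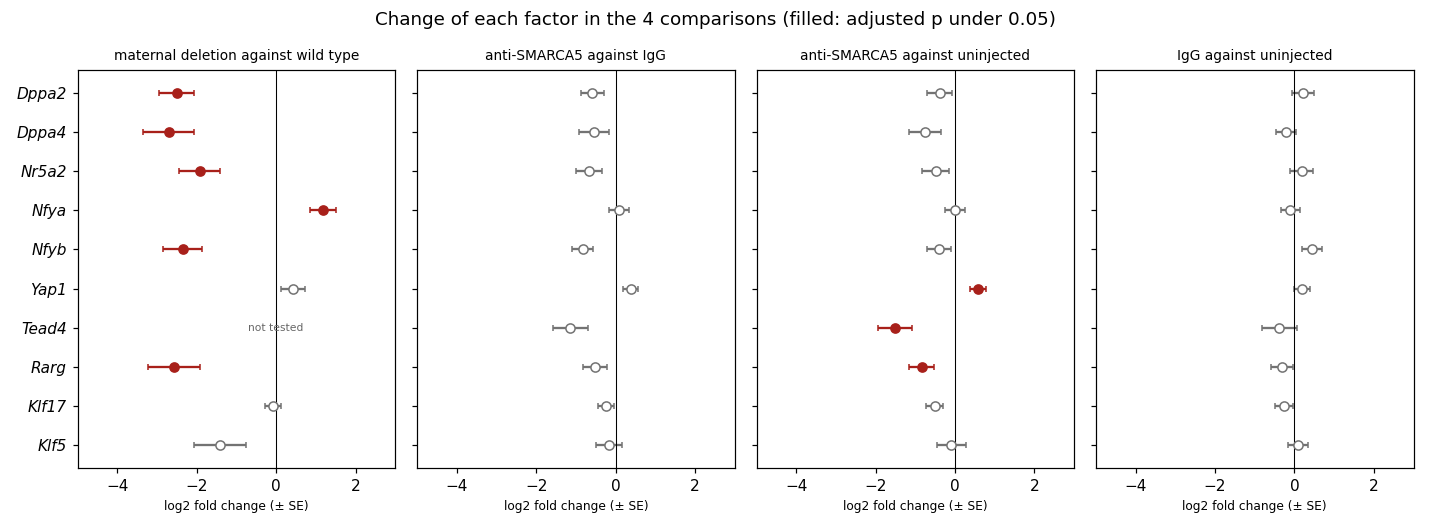
Log2 fold change (± SE) of each factor in the 4 comparisons, filled where the adjusted p was under 0.05. Dppa2, Dppa4, Nr5a2, Nfyb and Rarg lie between -1.93 and -2.71 in the maternal deletion, and in the comparison with IgG no point is filled.

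In the TrimAway experiment the question was whether removing the protein from the zygote moved the same RNAs. Against IgG, 0 of the 10 factors passed the test, beside 3.03% of 10447 genes (1.73% higher and 1.30% lower), and 4 of the 10 had an unadjusted p under 0.05, as did 2762 of all genes. With DESeq2, which called 10.2% of genes, only Nfyb was called among the factors (-0.84, adjusted p = 0.033). The replicate number mattered here. With it as a block Dppa2 (-0.97, adjusted p = 0.0145), Dppa4 (-1.08, adjusted p = 0.0461), Nr5a2 (-0.81, adjusted p = 0.0435) and Nfyb (-1.06, adjusted p = 0.0117) fell and Yap1 (0.62, adjusted p = 0.00883) rose, beside 13.6% and 12.1% of all genes. The fit without the block sets 31 libraries of replicates 1 to 3 against 20 of replicates 1 and 3, since no IgG library of replicate 2 reached 100000 counts.

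Levels of the pair overlapped between the injected groups. Dppa2 was at 29.9, 248.4 and 662.3 CPM in IgG and at 7.27, 145.4 and 511.5 CPM in anti-SMARCA5 libraries, with 23 of 31 under the IgG median. Its log2 fold change was -0.59 (SE 0.29, 95% interval -1.16 to -0.02, adjusted p = 0.184). Dppa4 was at 18.0, 136.2 and 374.5 CPM in IgG and at 0, 98.7 and 370.5 CPM in anti-SMARCA5 libraries. Its log2 fold change was -0.54 (SE 0.38, 95% interval -1.28 to 0.20, adjusted p = 0.343).

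Nr5a2 was at 14.6, 82.7 and 216.9 CPM in IgG and at 0, 40.9 and 126.8 CPM in anti-SMARCA5 libraries, a log2 fold change of -0.67 (adjusted p = 0.168, SE 0.32). Nfyb was at 10.4, 81.0 and 145.6 CPM in IgG and at 1.68, 49.5 and 99.7 CPM in anti-SMARCA5 libraries. For Nfyb 28 of 31 anti-SMARCA5 libraries lay under the IgG median, the largest such number among the 10 factors, and the log2 fold change was -0.83 (adjusted p = 0.0614, SE 0.27). Without the anti-SMARCA5 library of well C02 it was -0.87 with an adjusted p of 0.0481. Nfya, its partner, was at 5.27, 39.3 and 165.2 CPM in IgG and at 0.446, 38.2 and 144.2 CPM in anti-SMARCA5 libraries, with a log2 fold change of 0.09 (adjusted p = 0.837, SE 0.26), whose sign turned when libraries were scaled by their totals.

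Tead4 was at 0.562, 16.9 and 125.0 CPM in IgG and at 0, 7.28 and 44.5 CPM in anti-SMARCA5 libraries. Its log2 fold change of -1.14 (adjusted p = 0.101, SE 0.44) was the largest of the 10 factors here and did not pass the test. Yap1 was at 107.1, 557.0 and 904.9 CPM in IgG and at 121.2, 615.0 and 1311.0 CPM in anti-SMARCA5 libraries, a log2 fold change of 0.38 (adjusted p = 0.202, SE 0.19). The other 3 factors, Rarg, Klf17 and Klf5, had log2 fold changes between -0.52 and -0.17 with adjusted p of 0.268 or more.

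Single replicates differed in how many genes were called, 16.5% within replicate 3 and 0.857% within replicate 1. In replicate 3 Trim21 was at 0, 182.3 and 1513.0 CPM in IgG libraries, of which 2 had no count. In anti-SMARCA5 libraries of that replicate it was at 207.3, 1444.4 and 3587.0 CPM. Within replicate 3 Dppa2 had a log2 fold change of -1.35 (adjusted p = 0.0276, SE 0.39), Dppa4 -2.17 (adjusted p = 0.0461, SE 0.73) and Nfyb -1.75 (adjusted p = 0.0266, SE 0.51). For Dppa4 the medians there were 123.8 CPM in 10 IgG libraries and 19.8 CPM in 7 anti-SMARCA5 libraries. Within replicate 1, whose IgG libraries held no Trim21, the same 3 genes were at -0.72, -0.41 and -0.60, and 0 of the 10 factors passed the test. The oocyte gene Gdf9 rose within replicate 3 (1.14, adjusted p = 0.0286) and had a log2 fold change of 0.31 (adjusted p = 0.576) within replicate 1, and its part in these values was not tested. Smarca5 RNA had log2 fold changes of -1.76 within replicate 3 and -0.53 within replicate 1. The difference between the 2 replicates was itself called for 0 of the 10 factors, in a test that called 0.316% of 12659 genes. The difference for Dppa4 was -1.75 (adjusted p = 0.280, SE 0.78). How far the presence of Trim21 in the controls or the collection bears on this cannot be told apart.

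**Figure D4:**
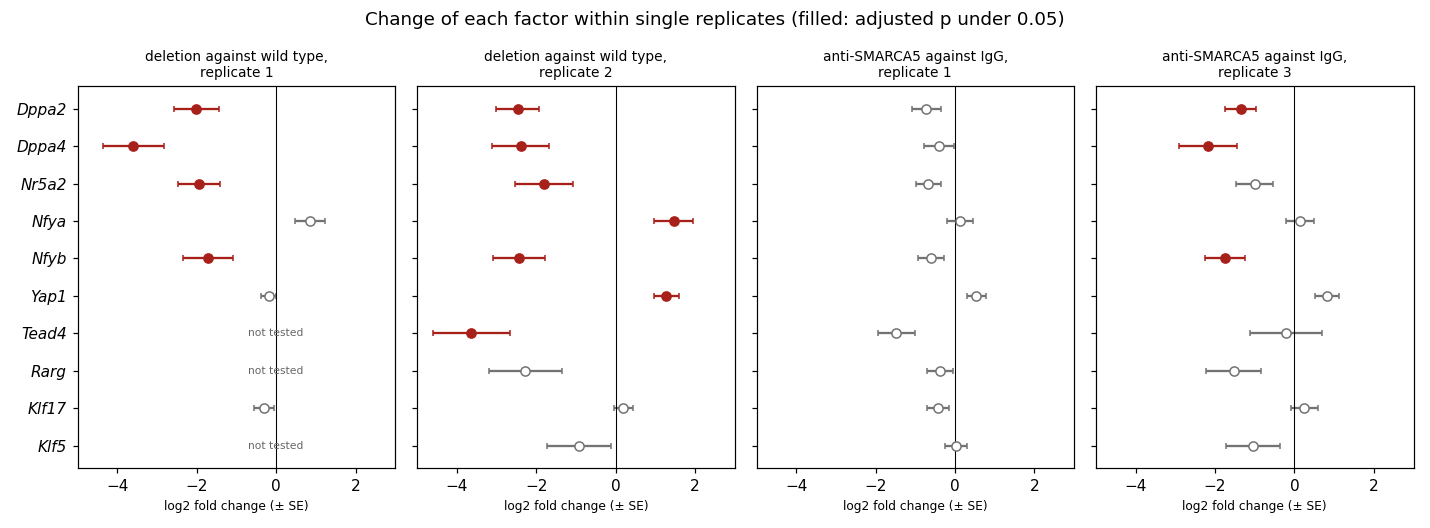
Log2 fold change (± SE) of each factor within single replicates of the deletion and of the comparison of anti-SMARCA5 with IgG, filled where the adjusted p was under 0.05. Dppa2, Dppa4, Nr5a2 and Nfyb are filled in both deletion replicates, Nfya, Yap1 and Tead4 in replicate 2 of the deletion, and Dppa2, Dppa4 and Nfyb in replicate 3 of the TrimAway experiment.

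Genes around YAP and retinoic acid gave some of the calls against IgG. Of all genes 1.73% rose and 1.30% fell in that fit, and 12.1% and 13.6% with the replicate block. Of 11 measured textbook targets of YAP and TEAD, 6 were tested and 4 rose (3 with the replicate block). Their IgG medians were between 0.293 and 4.31 CPM, and a gene that low in controls could pass the filter through the anti-SMARCA5 libraries, so the count is no measure of the list. They were Cyr61, a secreted matrix protein (2.79, SE 0.57), Krt8, a keratin (3.13, SE 0.61), Gata3 (2.24, SE 0.59) and Amotl2, a YAP-binding scaffold (2.15, SE 0.63), with adjusted p between 0.0104 and 0.0462. Their anti-SMARCA5 medians were between 10.9 and 23.6 CPM. In the retinoic acid list 2 of 11 tested genes rose (5 with the replicate block), Rdh10 (0.61, SE 0.17) and Rdh11 (1.16, SE 0.26). Mob1a fell (-1.03, SE 0.27, adjusted p = 0.0317), as it did in the deletion. With the block 2 relatives of the factors rose and 4 fell, and without it Nfyc, which encodes another NF-Y subunit, was the 1 called, and it fell (-0.96, SE 0.23, adjusted p = 0.0242). None of the 11 tested genes downstream of DPPA2 and DPPA4 or DUX was called, and 4 of them fell with the replicate block. Of 22 other transcription factors 1 was called, Sall4, which fell (-0.77, SE 0.23, adjusted p = 0.0480), whereas with the block 6 rose and 2 fell.

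Against uninjected embryos, a comparison that shares the anti-SMARCA5 libraries with the one above, Tead4 and Rarg fell and Yap1 rose, beside 10.4% and 17.5% of 10750 genes. Tead4 was at 8.04, 26.0 and 148.8 CPM in uninjected libraries, and 28 of 31 anti-SMARCA5 libraries lay under that median. Its log2 fold change was -1.51 (adjusted p = 0.0101, SE 0.43). Rarg was at 16.7, 48.1 and 78.7 CPM in uninjected and at 0, 20.3 and 68.8 CPM in anti-SMARCA5 libraries, a log2 fold change of -0.84 (adjusted p = 0.0457, SE 0.32). Yap1 was at 296.6, 556.5 and 828.5 CPM in uninjected libraries, and its log2 fold change of 0.58 (adjusted p = 0.0228, SE 0.19) became 0.10 (adjusted p = 0.702) when libraries were scaled by their totals, under which the median of all genes moved from 0.13 to -0.29.

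The remaining factors did not pass this test. Dppa4 was at 81.6, 214.6 and 335.5 CPM in uninjected libraries, with a log2 fold change of -0.76 (adjusted p = 0.138, SE 0.40), and fell with the replicate block (-1.09, adjusted p = 0.0342), which gave 3 lower and 1 higher factor beside 14.6% and 17.2% of all genes. Dppa2 was at 71.1, 247.7 and 636.5 CPM in uninjected libraries, a log2 fold change of -0.39 (adjusted p = 0.337, SE 0.31). Under 11 alternative settings that fold change of Dppa2 ran from -1.54 to -0.20, with adjusted p between 0.0316 and 0.707. In 10 of the 11 its sign and its side of the threshold were kept. Klf17 was at 201.6, 541.4 and 1091.4 CPM, and its log2 fold change of -0.51 (adjusted p = 0.0602, SE 0.21) became -0.92 (adjusted p = 0.0102) when libraries were scaled by their totals. Most anti-SMARCA5 libraries, 26 for Dppa4, 22 for Dppa2 and 28 for Klf17, lay under the uninjected median. Nr5a2, Nfya, Nfyb and Klf5 had log2 fold changes between -0.49 and 0 and adjusted p of 0.262 or more. Without replicate 1, which held 10 of the 15 uninjected libraries, none of the 10 factors was called, beside 0.00948% of genes. Tead4 was also called without replicate 2 and without replicate 3, where 2 factors were called, both lower. Yap1 was called without replicate 2 only, and Rarg in neither case. Within replicate 3 alone 3 factors were called, 2 lower and 1 higher, beside 2318 of 8697 genes. Within replicate 1 alone 0 were called, beside 1656 of 10632 genes.

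The lists were also read against uninjected embryos, a comparison in which 17.5% of all genes rose and 10.4% fell. The 4 called YAP and TEAD targets, of 6 tested, rose: Gata3 (4.37, SE 0.73), Cyr61 (3.55, SE 0.67), Krt8 (2.74, SE 0.64) and Krt18, a keratin (2.04, SE 0.69). Their uninjected medians were between 0.549 and 2.05 CPM, so the limit on this count holds here too. Of 11 tested genes of the retinoic acid list 6 rose, among them Cyp26a1, which degrades retinoic acid (4.62, SE 0.90). The uninjected median of Cyp26a1 was 0 CPM, so that limit applies to it as well. Among 23 tested relatives 3 rose and 3 fell, with Klf10 (1.86, SE 0.53) and Klf7 (1.12, SE 0.29) highest and Nfyc (-1.17, SE 0.23) and Klf9 (-0.95, SE 0.30) lowest. Of 11 genes downstream of DPPA2 and DPPA4 or DUX 2 rose, Zscan4d (1.74, SE 0.67) and Zscan4f (2.16, SE 0.72), and 1 with the replicate block. Both had similar values in IgG against uninjected embryos (1.61, adjusted p = 0.226, and 2.61, adjusted p = 0.177). Against IgG they lay at 0.16 (adjusted p = 0.873) and -0.42 (adjusted p = 0.701), in comparisons that share libraries. Of 18 tested Hippo regulators 4 rose and 1 fell, among them Stk3 (1.39, SE 0.34) and Taok1, a kinase (0.99, SE 0.21), and Mob1a (-0.89, SE 0.30). Of 21 other transcription factors 1 rose, Sox2, a pluripotency factor (1.59, SE 0.59), and 5 fell, with Creb1 (-1.14, SE 0.40) and Gabpa (-1.02, SE 0.32) lowest. Oocyte markers moved as well, with 3 of 8 tested higher, among them Gdf9 (0.75, SE 0.27), and 1 lower, and their part was not tested.

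The control antibody gave no call. Between IgG and uninjected embryos 0 of the 10 factors and 0.0% of 9915 genes were called with edgeR. Of the 10 factors 0 had an unadjusted p under 0.05, against 1440 of all genes, and DESeq2 called 207 genes and 0 of the factors. The widest 95% interval was that of Tead4, -1.24 to 0.48, and the narrowest that of Yap1, -0.19 to 0.59, so changes of the size seen for Dppa2 in the deletion lie outside these intervals.

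The effects of deletion and of TrimAway were compared directly in 1 fit of the 4 groups. Their difference was called for 5 of the 10 factors, Dppa2, Dppa4, Nfyb, Tead4 and Rarg, all lower after deletion, beside 19.2% of 12035 genes called in either direction. These calls did not hold with the replicate number as a block within each experiment, a fit added after seeing the data: 0 of the 10 factors were then called, beside 11.7% of genes. The difference without the block was -1.96 (adjusted p = 0.00564, SE 0.53) for Dppa2 and -2.22 (adjusted p = 0.0326, SE 0.78) for Dppa4. It was -1.57 (adjusted p = 0.0343, SE 0.55) for Nfyb, -2.47 (adjusted p = 0.0315, SE 0.86) for Tead4 and -2.06 (adjusted p = 0.0291, SE 0.71) for Rarg. With the block the same differences were -1.43 (adjusted p = 0.0564) for Dppa2, -1.86 (adjusted p = 0.0805) for Dppa4, -1.19 (adjusted p = 0.171) for Nfyb, -2.15 (adjusted p = 0.0831) for Tead4 and -1.77 (adjusted p = 0.0955) for Rarg. Without wells A04, G05, H05 and C02 and without the block 6 factors were called, Nr5a2 (-1.90, adjusted p = 0.00669) and Nfya (1.35, adjusted p = 0.013) among them and Rarg (-1.70, adjusted p = 0.0651) not. In the fit of all libraries Nr5a2 (-1.36, adjusted p = 0.0931) and Nfya (1.02, adjusted p = 0.064) missed the threshold. For Yap1 the difference was -0.07 (95% interval -0.78 to 0.64) and for Klf17 0.13 (95% interval -0.46 to 0.72). The oocyte gene Gdf9 differed by 5.09 in the same test, and 6 of 9 tested oocyte markers were higher after deletion, whose part in these differences was not tested.

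The factors' patterns were also set beside those of all other genes, as means of log2(TMM-scaled CPM + 1) over 11 combinations of group and replicate with at least 2 libraries, among 7793 genes with a mean of at least 3. These correlations describe 11 points that share libraries and controls, and carry no test. The points pool both experiments, which were scaled separately, and treated and control groups. Each r therefore also holds differences between experiments and groups. Dppa2 and Dppa4 had a Pearson r of 0.97 with each other. Nfyb was at 0.93 with Dppa2 and 0.94 with Rarg, and Nfya at -0.82 with Nfyb. Klf17 had an r between -0.30 and 0.05 with every factor but Nfya, with which it was at 0.62. The genes most like Dppa2 were Tpr, Ccdc137 and Tnpo3 (r 0.983 to 0.987), and those most like Dppa4 were Wdr45l, Nxf1 and H47 (0.990 to 0.993). For Nr5a2 they were 9130011E15Rik, Plekhm3 and 1500010J02Rik (0.969 to 0.980), for Nfyb Wdr75, Esf1 and Ltv1 (0.971 to 0.980), and for Nfya Rnf114, Fkbp5 and Egln1 (0.913 to 0.933). Yap1 was closest to Plekhg1, Lrp1b and Dock9 (0.977 to 0.990), Tead4 to Pitpnc1, Wdr70 and Gart (0.971 to 0.973), and Rarg to Rpl29, Slc25a28 and 4930427A07Rik (0.984 to 0.991). Klf17 was closest to Ost4, Cfl1 and Gpt2 (0.931 to 0.945) and Klf5 to Thoc5, Slc1a1 and Ddx31 (0.976 to 0.981).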

How the data were processed

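Poly(A) RNA was measured in 138 libraries of 2 tables. Values are raw counts per gene that the authors deposited, per the file headers on GRCm38. Per the submitters' processing notes, reads were trimmed with Trim Galore 0.6.5 and cutadapt 2.3 and aligned with HISAT2 2.1.0. The counting tool, the annotation release and the use of strand are not given in the sources used here. Repeated gene IDs (57) were summed, leaving 25900 genes. Odd counts were more frequent than even ones (134662 table cells held 1 and 30228 held 2, against 84269 with 3), so counting error may be larger than read totals imply. Libraries under 100000 counts were left out (19 of 135).

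Groups followed the labels' genotype. Each comparison was fitted on its own groups across all genes with edgeR 4.0.16 in R 4.3.3 (filterByExpr, TMM, robust quasi-likelihood F test, Benjamini-Hochberg over all genes tested, threshold 0.05), and the SE is the log2 fold change over the square root of F. Differences between effects were interaction terms. The fits were tested on simulated data. Alternatives were total-count scaling, no low-count filter, no minimum depth, a replicate block (also in the difference between the 2 experiments), each replicate left out or alone, wells with doubtful labels left out, and DESeq2 1.42.0.

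The labels give each replicate number to a separate pool of embryos, and in the deletion experiment to a sequencing lane. Deviations of same-numbered groups correlated at 0.534 (deletion and wild type), 0.600 (anti-SMARCA5 and IgG), 0.0834 (anti-SMARCA5 and uninjected) and 0.427 (IgG and uninjected). Replicate and lane cannot be told apart.

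The members and lists were chosen with earlier results of these data known. Named genes were all 10 members and, per list, the 2 largest called rises and falls among genes averaging 2 or more in log2 CPM, or all where 5 or fewer were called. A gene that this rule names is not reported here. Exon lengths came from GENCODE M21 and promoters from RefSeq (GRCm38.p6).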

Additional observations from a re-analysis of the deposited data

Results flagged for a closer look

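The effect of the maternal deletion and the effect of anti-SMARCA5 against IgG differed for 5 of the 10 factors by the interaction term in edgeR, each lower after deletion, in the fit without a replicate block. Of all 12035 genes tested, 19.2% were called in either direction. The differences on the log2 scale were -1.96 for Dppa2 (adjusted p = 0.00564), -2.22 for Dppa4 (adjusted p = 0.0326), -1.57 for Nfyb (adjusted p = 0.0343), -2.47 for Tead4 (adjusted p = 0.0315) and -2.06 for Rarg (adjusted p = 0.0291). When replicates were blocked within each experiment, a fit added after seeing the data, 0 of the 10 were called, beside 11.7% of genes. The 5 differences then lay between -2.15 and -1.19 with adjusted p of 0.0564 to 0.171. The experiments differ in lane, in the source and genotype of the embryos, in injection, and in whether SMARCA5 was lacking from the egg or removed from the zygote. They also differ in how far Smarca5 RNA fell, which does not measure the protein that TrimAway removes. These features cannot be told apart.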

How the results depend on the processing

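In the deletion comparison 6 factors were called, and 6 to 8 under the other settings, with 4 to 7 when 1 replicate was left out. Among all genes 4825 of 8518 were called in the main fit, 4907 of 8518 with the replicate block and 10416 of 20995 without the low-count filter. Without replicate 1 these were 3879 of 9730 genes, and without replicate 2 they were 2801 of 6389. Against IgG 0 were called, against 1 without a low-count filter, 1 without the library of well C02, 1 with DESeq2, 3 in replicate 3 only, 5 with the replicate block, and 0 to 1 when 1 replicate was left out. The calls over all genes moved too: 317 of 10447 in the main fit, 3010 of 22374 without the filter and 521 of 10381 without well C02. DESeq2 called 10.2% of genes, replicate 3 only 1576 of 9547, and the replicate block 2691 of 10447. With 1 replicate left out it was 0 of 9402 without replicate 1, 591 of 10100 without replicate 2 and 417 of 11044 without replicate 3. Against uninjected embryos 3 were called, against 4 with DESeq2, 4 with the replicate block and 2 with no minimum depth. Genes called were 2999 of 10750 in the main fit, 3460 with DESeq2, 3426 with the block and 3061 of 10559 with no minimum depth. Replicate 3 only also gave 3, beside 2318 of 8697 genes, and replicate 1 only gave 0, beside 1656 of 10632. Leaving out 1 replicate gave 0 to 2, beside 1 of 10544 genes without replicate 1, 2921 of 10283 without replicate 2 and 2002 of 11142 without replicate 3. IgG against uninjected gave 0 under every setting, beside 0 of 9915 genes in the main fit, 881 of 20956 without the low-count filter and 207 with DESeq2. The difference between the deletion and anti-SMARCA5 effects was called for 5 factors, for 0 with the replicate block and for 6 without wells A04, G05, H05 and C02, where that of Yap1 turned to 0.17, and both settings were added after seeing the data. Genes called in these fits were, in this order, 2315 of 12035, 1404 of 12035 and 3265 of 11937. The cause of these differences was not tested.

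Signs turned in 32 values of single factors, while 339 kept their sign and their side of the threshold. Another 28 kept their sign and became called, and 20 kept their sign and were no longer called. Values with a turned sign follow. In the deletion, leaving out a replicate gave -0.30 to 0.19 for Klf17 and -0.19 to 1.28 for Yap1. Against IgG, Nfya was at -0.026 with total counts and -0.12 to 0.25 with a replicate left out, Klf17 at 0.25 in replicate 3 only and -0.59 to 0.049 with a replicate left out, and Klf5 at 0.033 in replicate 1 only. Against uninjected embryos, Nfya was at -0.29 with total counts, -0.068 with DESeq2, -0.02 in replicate 3 only and -0.15 to 0.17 with a replicate left out. Klf5 was at 0.24 in replicate 1 only and -0.55 to 0.036 with a replicate left out, and Klf17 at 0.01 in replicate 3 only. For IgG against uninjected, total counts gave -0.018 for Dppa2, -0.025 for Nr5a2, -0.098 for Yap1 and -0.10 for Klf5. Leaving out a replicate gave -0.16 to 0.52 for Dppa2, -0.20 to 0.52 for Nr5a2, -0.13 to 0.068 for Nfya, -0.17 to 0.54 for Yap1 and -1.72 to 0.38 for Tead4, and single replicates gave the same values. Leaving out wells A04, G05 and H05 together, chosen after seeing the data, kept 6 calls, beside 5035 of 8380 genes. Dppa4, Tead4, Rarg and Klf5 were at the floor in most deletion libraries, so their fold changes rest on few counts in that group. Depth was lower in wild type (median 545264.5 counts) than in deletion libraries (1618485.5), where libraries of 7018484 and 7236695 counts held no Tead4 or Rarg count.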

Other observations

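Dppa2 and Dppa4 were compared library by library within each group, as were Nfya and Nfyb, 10 relations chosen after seeing the data and given with a permutation test and Benjamini-Hochberg adjustment. Dppa2 and Dppa4 had a Pearson r of 0.65 in the deletion (Spearman rho 0.70, adjusted permutation p = 0.00063, n = 28), 0.77 in IgG (rho 0.76, adjusted permutation p = 0.00045, n = 20) and 0.77 in uninjected libraries (rho 0.81, adjusted permutation p = 0.0019, n = 15). Without the 2 libraries farthest from the median these r were 0.64, 0.75 and 0.65, and within replicates of 6 or more libraries they were 0.59 to 0.74, 0.67 to 0.77 and 0.66. In anti-SMARCA5 libraries r was 0.68 (rho 0.79, adjusted permutation p = 0.0001, n = 31), 0.69 without those 2, and 0.18 to 0.84 within replicates. In wild type libraries the pooled r of 0.59 (rho 0.60, adjusted permutation p = 0.0086, n = 22), 0.52 without those 2, did not hold within replicates, where it was -0.04 to 0.36. For Nfya and Nfyb r lay between -0.34 and 0.03 in the 5 groups, with adjusted permutation p of 0.24 or more. In IgG libraries the rank correlation of Nfya and Nfyb was rho -0.57 (adjusted permutation p = 0.017, n = 20), and r there was -0.46 without those 2 libraries and -0.49 to -0.36 within replicates.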
